A study of Mus musculus with 2 samples.

Results

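The enzymes that turn squalene into cholesterol were followed in primary fibro-adipogenic progenitors (FAPs), muscle-resident mesenchymal cells able to become fibroblasts or adipocytes. The members are the 9 genes Sqle, Lss, Cyp51, Msmo1, Nsdhl, Hsd17b7, Ebp, Sc5d and Dhcr7, chosen by name from 44291 genes in each expression table and read in pathway order. That choice was made with earlier results of these data known. All 9 had a lower level in FAPs treated with platelet-rich plasma (PRP) than in vehicle-treated control FAPs, and their summed level was 75.9 against 155.0 FPKM, a ratio of 0.490. FPKM is a read count scaled by the exon length of the gene and the total of the library. The ratios of single members ran from 0.358 for Nsdhl to 0.828 for Ebp. Each group was 1 library, so every value below describes a difference between 2 libraries with no replicate check and no p-value.

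Cholesterol synthesis from squalene takes place in the membrane of the endoplasmic reticulum. Squalene is first oxidized and folded into the sterol lanosterol, from which methyl groups are then removed and whose double bonds are moved or reduced until cholesterol is left. The genes of these enzymes are textbook targets of SREBP2, a membrane-bound transcription factor that is released when sterols in the endoplasmic reticulum run low and that acts at promoters together with the factors NF-Y and Sp1. Cholesterol is needed for new membranes in dividing cells, and adipocytes hold a large store of it.

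The study compared FAPs that were given PRP or vehicle before adipogenic induction. Both groups were wild type (WT) mouse cells and both received the same induction medium. It was DMEM to which insulin (10 µg/ml), dexamethasone (0.25 µM), IBMX (0.5 mM) and FBS (20%) had been added. The labels call the treatment PRP, whereas the study's text speaks of exosomes prepared from PRP, and the libraries are named here as labelled. The labels do not say how many animals or cultures stood behind each library, and they name no batch.

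The library totals behind the FPKM came to 40120843 reads for PRP and 34139741 for the control, which is 1.18 times as many with PRP. These totals, and the read numbers of single genes below, were recovered from FPKM and exon lengths. Which reads the authors counted in a total is not given in the sources used here. Genes whose FPKM averaged 1 or more over both libraries are called tested genes below, and there were 13401. Their median log2 fold change was 0.01, and 49.1% of them were lower in the PRP library. The 10 FAP markers looked at were all tested, with single values from 2.31 FPKM (Tcf7l2 with PRP) to 218.7 FPKM (Col1a1 in the control), and all 10 were lower in the PRP library, with sums of 406.7 against 662.1 FPKM. The macrophage markers summed to 11.6 and 11.5 FPKM in the PRP and control library, with the leukocyte gene Ptprc at 0.0109 and 0.0192 FPKM, Cd68 higher with PRP (ratio 1.98, 1.41 to 2.82) and Lyz2 lower (0.648, 0.512 to 0.820). The endothelial markers summed to 9.75 and 5.51 FPKM, with Cldn5 at 0 in both, and the tested ones were both higher with PRP, Kdr at 4.23 against 1.499 FPKM (2.82, 2.43 to 3.28) and Tek at 4.73 against 3.56 FPKM (1.33, 1.14 to 1.55). The platelet markers summed to 2.46 and 3.70 FPKM with 2 of 8 (Ppbp and Gp9) at 0 in both, and the tested one, Gp1bb, was lower with PRP (0.386, 0.253 to 0.577). Gp1bb was tested only through its control level, with 0.872 FPKM with PRP and 2.26 FPKM in the control. Itga2b, not tested at 0.567 and 0.365 FPKM, was higher with PRP (1.55, 1.005 to 2.43). The 8 myogenic markers in the tables summed to 43.1 and 27.2 FPKM with Pax7 and Myog at 0 in both. Of the 4 tested, Tnnc1 (2.43, 2.02 to 2.93) and Acta1 (1.36, 1.17 to 1.57) were higher with PRP, and the intervals of Des and Ckm included 1. The adipocyte markers summed to 140.9 and 146.3 FPKM. Of the 7 tested, 5 were higher with PRP, of which Pparg (1.33, 1.15 to 1.53) and Fabp4 (1.21, 1.15 to 1.27) had an interval above 1. The other 2 were lower, of which Lpl (0.810, 0.791 to 0.828) had an interval below 1. These marker intervals hold counting error alone. Among all tested genes with an interval, 26.1% had it below 1, and the share above 1 was not counted. Mitochondrially encoded genes made up 2.06% of all FPKM with PRP and 3.70% in the control. In such bulk RNA, fewer cells that use a gene and less of its RNA per cell cannot be told apart.

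Because all members were lower in the same library, their promoters were read from RefSeq (build GRCm38.p6), which gave 250 bases before to 50 bases after the transcript start for 8 of the 9 members, all but Sqle. The 180 bases before the start are printed for Cyp51 and Nsdhl, with the lowest fold changes among the members, for Ebp, whose ratio was nearest to 1, and for Msmo1, the only member with a match to the 8-base sterol element. Each is written on the strand of its gene and ends at the base before the start, and capitals mark the NF-Y box CCAAT or its reverse complement ATTGG.
Cyp51 (chr5:4104698-4104877, minus strand): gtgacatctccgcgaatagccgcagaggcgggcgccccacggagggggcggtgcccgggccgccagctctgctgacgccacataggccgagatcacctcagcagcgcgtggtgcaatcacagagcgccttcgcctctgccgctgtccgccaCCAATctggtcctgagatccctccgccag
Msmo1 (chr8:64733579-64733758, minus strand): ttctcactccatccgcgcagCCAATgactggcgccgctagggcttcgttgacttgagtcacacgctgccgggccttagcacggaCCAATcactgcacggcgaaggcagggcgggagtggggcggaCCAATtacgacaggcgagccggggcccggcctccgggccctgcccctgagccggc
Nsdhl (chrX:72918341-72918520, plus strand): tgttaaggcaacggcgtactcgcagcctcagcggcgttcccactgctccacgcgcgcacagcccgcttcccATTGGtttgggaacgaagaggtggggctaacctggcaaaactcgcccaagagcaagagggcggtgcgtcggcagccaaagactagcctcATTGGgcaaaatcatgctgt
Ebp (chrX:8193513-8193692, minus strand): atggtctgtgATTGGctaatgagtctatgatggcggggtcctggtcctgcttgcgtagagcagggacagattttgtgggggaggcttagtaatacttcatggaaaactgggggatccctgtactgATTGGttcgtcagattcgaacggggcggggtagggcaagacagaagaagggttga

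All 8 members with a promoter in the table held an NF-Y box within the full window of 300 bases, searched on both strands, whereas 41.1% of the 27025 genes in the table and 43.0% of the 8655 tested genes among them held one. The box nearest before the start began at base -62 in Lss, -29 in Cyp51, -55 in Msmo1, -20 in Nsdhl, -12 in Hsd17b7, -55 in Ebp and -24 in Sc5d, where -1 is the last base before the start. Dhcr7 has 3 starts in the table, of which the 2 upstream ones held no NF-Y box and the most downstream one held 2. The number of boxes ran from 1 in Lss, Cyp51 and Sc5d to 4 in Nsdhl, so Ebp, with 2, lay within the range of the others. An Sp1 box (GGGCGG, both strands) was in all 8 members and in 69.2% of the tested genes. The sterol regulatory element TCACNCCAC was in none of the 8 members and in 1.42% of the tested genes, and its first 8 bases TCACNCCA were in 1 member, Msmo1, beginning at base -177, and in 4.66% of the tested genes. The last letters of the 8-base element can be the first of an NF-Y box, but in Msmo1 the nearest NF-Y box begins at base -160, clear of it. Of the 9 other genes of cholesterol synthesis with a window, 7 held an NF-Y box, 8 an Sp1 box and 1, Hmgcs1, the sterol element of 9 bases. These matches describe letters within 300 bases and say nothing about binding.

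**Figure D1:**
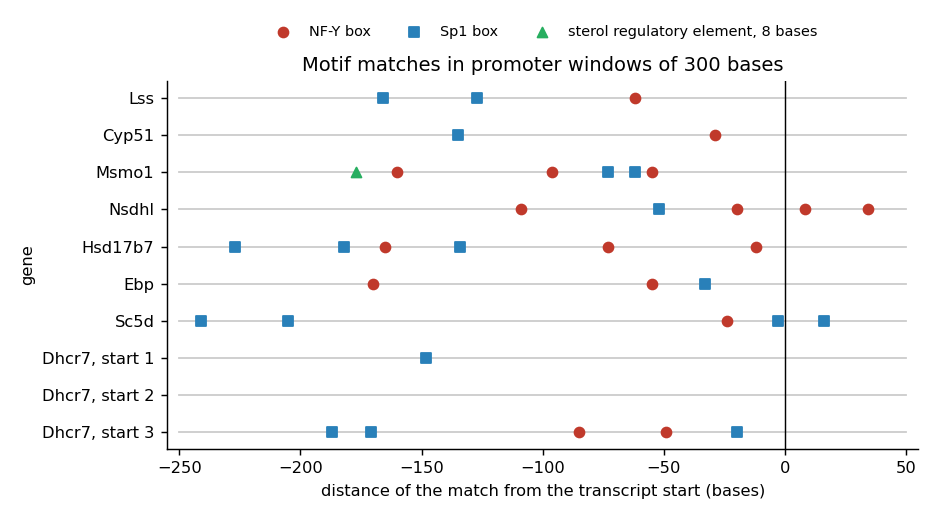
Matches of the NF-Y box (circles), the Sp1 box (squares) and the 8-base sterol regulatory element (triangle) in the promoter window of each member, by the distance in bases of the match's first base from the transcript start. Every member shown has at least 1 NF-Y box and 1 Sp1 box, in Dhcr7 counted over its 3 starts, and the sterol element is seen once, in Msmo1.

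The opening steps, from squalene to lanosterol, were lower by a like ratio. Sqle (ENSMUSG00000022351, chromosome 15, 59315077 to 59331192, plus strand, GRCm38) encodes squalene epoxidase, which puts oxygen on squalene. Its level was 6.97 FPKM with PRP and 15.9 FPKM in the control, from 1552 and 3008 reads. The ratio was 0.439, with a 95% interval of 0.402 to 0.479. To get the interval, the share of PRP among the fragments of the gene was given its Clopper-Pearson limits (exact binomial), which were then turned into FPKM ratios. It holds counting error alone and sets library against library. Lss (ENSMUSG00000033105, chromosome 10, 76531588 to 76557138, plus strand) encodes lanosterol synthase, which closes the sterol rings. Its level was 3.77 FPKM with PRP and 8.13 FPKM in the control, from 1631 and 2995 reads, a ratio of 0.463 (0.425 to 0.505). The ratio of Sqle was 0.947 times that of Lss, with an interval from 0.839 to 1.07 that includes no difference. Lss shares 381 of its 10787 exon bases with the opposite-strand gene 4930483K19Rik, which is 3.53% of them. The study's methods name a stranded library kit, but whether the counting used strand is not given in the sources used here.

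Cyp51 was the member with the highest level in the control library and had the lowest log2 fold change of all 9. Cyp51 (ENSMUSG00000001467, chromosome 5, 4081145 to 4104746, minus strand) encodes the cytochrome P450 that removes the first methyl group from lanosterol. Its level was 17.5 FPKM with PRP and 45.01 FPKM in the control, from 3108 and 6784 reads, a ratio of 0.390 (0.367 to 0.414). On the log2(FPKM + 1) scale its fold change was -1.31, the 43rd lowest of the tested genes. Its ratio was lower than those of both neighbours in the pathway, as the ratio of Lss was 1.19 times that of Cyp51 (1.07 to 1.32) and the ratio of Cyp51 was 0.821 times that of Msmo1 (0.741 to 0.909). Cyp51 overlaps the opposite-strand gene Akap9 by 166 exon bases, 3.76% of its exon length. The double bond that Cyp51 leaves is reduced by Tm7sf2 or Lbr, sterol reductases of which Lbr is also the lamin B receptor of the nuclear envelope. Tm7sf2 had 0.357 and 0.931 FPKM in the PRP and control library, from 63 and 140 reads, a ratio of 0.383 (0.243 to 0.591). Lbr had 2.62 and 3.37 FPKM, a ratio of 0.778 (0.653 to 0.927), so the interval of neither reductase reached 1.

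The genes that remove the remaining pair of methyl groups all lay at less than 0.5 times the control level, and among them the ratio of Nsdhl was below the others. Msmo1 (ENSMUSG00000031604, chromosome 8, 64718139 to 64733792, minus strand) encodes the methylsterol monooxygenase that oxidizes the methyl group. Its level was 7.11 FPKM with PRP and 14.97 FPKM in the control, from 1753 and 3140 reads, a ratio of 0.475 (0.437 to 0.516). Nsdhl (ENSMUSG00000031349, chromosome X, 72918557 to 72958514, plus strand) encodes the sterol dehydrogenase that takes off the carboxyl group which results. Its level was 3.76 FPKM with PRP and 10.5 FPKM in the control, from 430 and 1021 reads, a ratio of 0.358 (0.304 to 0.421). Hsd17b7 (ENSMUSG00000026675, chromosome 1, 169949535 to 169969241, minus strand) encodes the ketosteroid reductase that ends each round. Its level was 3.14 FPKM with PRP and 6.898 FPKM in the control, from 642 and 1202 reads, a ratio of 0.454 (0.396 to 0.521). The ratio of Msmo1 was 1.33 times that of Nsdhl (1.11 to 1.59), and the ratio of Nsdhl was 0.789 times that of Hsd17b7 (0.640 to 0.972). Nsdhl and Cyp51 did not differ beyond counting error, as the ratio of Cyp51 was 1.09 times that of Nsdhl (0.917 to 1.29). Erg28, which encodes a scaffold protein of this enzyme group, had 2.45 and 3.53 FPKM in the PRP and control library, a ratio of 0.696 (0.577 to 0.839).

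The last steps, in which double bonds are moved and reduced, held both the member nearest to 1 and the member with the fewest reads. Ebp (ENSMUSG00000031168, chromosome X, 8185329 to 8193512, minus strand) encodes the emopamil binding protein, an isomerase that shifts a double bond within the ring. Its level was 16.01 FPKM with PRP and 19.3 FPKM in the control, from 1484 and 1525 reads. Its ratio of 0.828 (0.747 to 0.917) lay below 1, but its log2 fold change of -0.26 was only the 2493rd lowest of the tested genes. Sc5d (ENSMUSG00000032018, chromosome 9, 42251595 to 42264256, minus strand) encodes the desaturase that acts on the product of Ebp. Its level was 17.1 FPKM with PRP and 33.6 FPKM in the control, from 3344 and 5577 reads, a ratio of 0.510 (0.480 to 0.542). The ratio of Hsd17b7 was 0.549 times that of Ebp (0.464 to 0.650) and the ratio of Ebp was 1.62 times that of Sc5d (1.44 to 1.83), so Ebp stood apart from the steps on both sides of it. Dhcr7 (ENSMUSG00000058454, chromosome 7, 143823145 to 143848410, plus strand) encodes the reductase of the last ring double bond. Its level was 0.420 FPKM with PRP and 0.670 FPKM in the control, from 98 and 133 reads, and did not reach the mean FPKM of 1. Its ratio of 0.627 (0.424 to 0.921) has the widest interval among the members and could not be told from that of Ebp, with a ratio of ratios of 1.32 (0.901 to 1.94), or from that of Sc5d, at 0.814 (0.560 to 1.18).

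**Figure D2:**
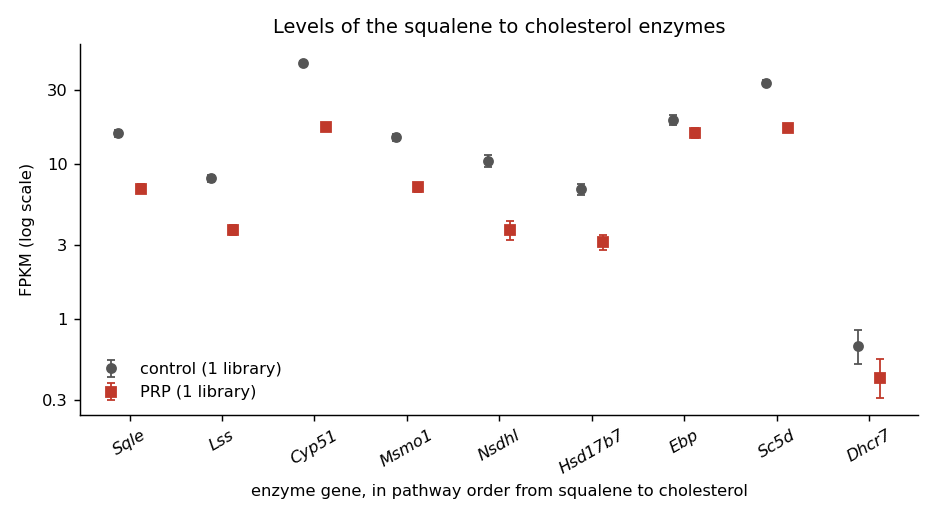
FPKM on a log scale of each member in the control library (circles) and the PRP library (squares), in pathway order, with exact 95% intervals of the counting error. The square lies below the circle for all 9 members, by the least for Ebp (16.01 against 19.3 FPKM), and Dhcr7 lies far below the others in both libraries.

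Among the members tested, 8 of 8 were lower in the PRP library and 3, Sqle, Cyp51 and Nsdhl, had a log2 fold change of -1 or less on the log2(FPKM + 1) scale, against 111 of the 13401 tested genes (0.828%). The pseudocount of 1 understates the change of low genes, and with the plain FPKM ratio 6 of 8 members were at 0.5 or less, against 289 tested genes (2.16%). The 6 were Sqle, Lss, Cyp51, Msmo1, Nsdhl and Hsd17b7, that is every member from squalene up to the end of the methyl group removal, and Sc5d lay just above at 0.510. The interval of the ratio was below 1 for 8 of 8 tested members, and for 9 of 9 with Dhcr7, against 3226 of the 12369 tested genes that have an interval (26.1%). The tested members had a median log2 fold change of -0.96, and 7 of the 8 were among the 200 lowest of the tested genes. The exception was Ebp. Over the 36 pairs of members, the ratios of 20 pairs differed beyond counting error, among them 7 of the 8 pairs with Ebp, 7 of 8 with Cyp51 and 7 of 8 with Nsdhl. Without Ebp, 13 of 28 pairs differed by that measure. The pair intervals hold counting error alone, and the share of such pairs among other tested genes was not counted.

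**Figure D3:**
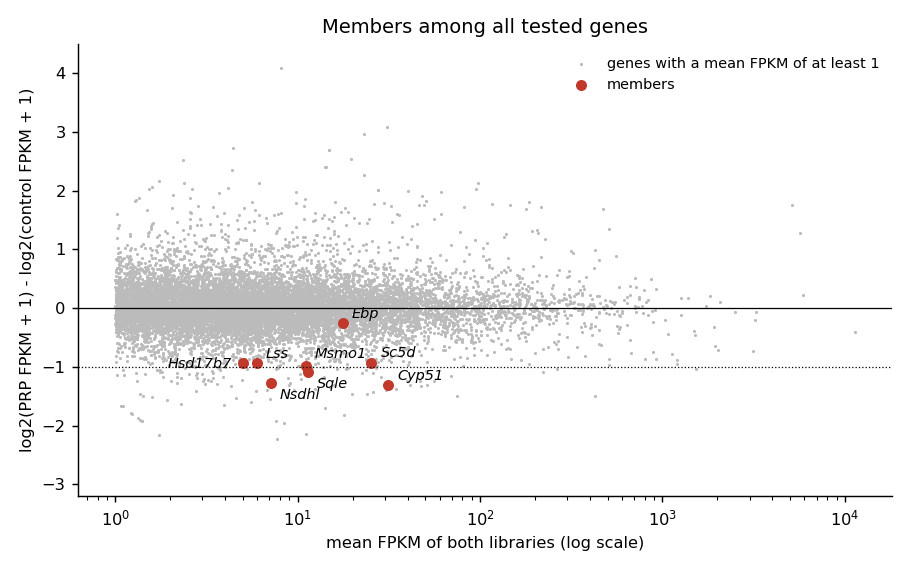
Log2 fold change on the log2(FPKM + 1) scale of the tested genes (grey) and of the 8 tested members (red) against their mean FPKM, with a solid line at 0 and a dotted line at a log2 fold change of -1. Of the members, 7 lie between -1.31 and -0.93 at the lower edge of the cloud and Ebp lies within it at -0.26.

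The order of levels within the pathway also differed between the libraries. In the control library it ran from Cyp51 at 45.01 FPKM through Sc5d at 33.6, Ebp at 19.3, Sqle at 15.9, Msmo1 at 14.97, Nsdhl at 10.5, Lss at 8.13 and Hsd17b7 at 6.898 to Dhcr7 at 0.670 FPKM. Of these neighbours only Sqle and Msmo1 did not differ beyond counting error, at a level ratio of 1.06 (0.988 to 1.14). In the PRP library Cyp51 at 17.5, Sc5d at 17.1 and Ebp at 16.01 FPKM formed a top group whose neighbours did not differ, with level ratios of 1.02 (0.955 to 1.10) and 1.07 (0.981 to 1.17). Below a step of 2.25-fold (2.04 to 2.49) from Ebp to Msmo1, Msmo1 and Sqle did not differ (1.02, 0.925 to 1.12), nor did Lss and Nsdhl (1.003, 0.862 to 1.17). Hsd17b7 lay just under Nsdhl, with a level ratio of 1.20 (1.003 to 1.43), and Dhcr7 was again the lowest. Cyp51 made up 29.0% of the members' sum in the control and 23.1% with PRP, whereas the share of Ebp went from 12.5% to 21.1%. The shares of the other 7 members moved by less, such as from 6.76% to 4.95% for Nsdhl and from 21.7% to 22.6% for Sc5d. Levels of different genes depend on the exon length used, which for Msmo1 is 3.01 times and for Lss 2.31 times that of its longest coding transcript. Per length of that transcript Msmo1 stood second in the control library and first in the PRP library, and Dhcr7 stayed lowest in both.

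To place the members, the rest of the pathway was read in the same libraries. The 8 genes before squalene that are reported were all lower with PRP. Their median log2 fold change was -1.21, with summed levels of 102.3 against 251.8 FPKM, a ratio of 0.406. All 8 had an FPKM ratio of 0.5 or less, against 2.16% of the tested genes. The 7 with an interval had it below 1, against 26.1% of the tested genes that have one. The lowest ratio of the pathway genes reported was that of Idi1, the isomerase of isopentenyl diphosphate, with 7.31 against 28.4 FPKM (0.258, 0.233 to 0.285). Mvd, which makes isopentenyl diphosphate, had 12.3 against 35.6 FPKM (0.346, 0.310 to 0.386) and Acat2, which opens the pathway with acetoacetyl-CoA, had 4.72 against 13.2 FPKM (0.357, 0.306 to 0.416). Hmgcs1, which encodes HMG-CoA synthase, had 23.2 against 59.1 FPKM (0.393, 0.373 to 0.414), and the kinase genes Pmvk and Mvk had 16.03 against 35.7 FPKM (0.449) and 4.46 against 9.23 FPKM (0.484). Fdps, the farnesyl diphosphate synthase gene, had 17.4 against 36.4 FPKM (0.478), and Fdft1, whose enzyme makes squalene itself, had 16.9 against 34.3 FPKM (0.492, with no interval because its reads did not come out whole). Every one of these 8 genes had a lower ratio than Ebp. The 3 other genes after squalene, Tm7sf2, Lbr and Erg28, were lower as well, and the 2 tested ones, Lbr and Erg28, had a median log2 fold change of -0.33.

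**Figure D4:**
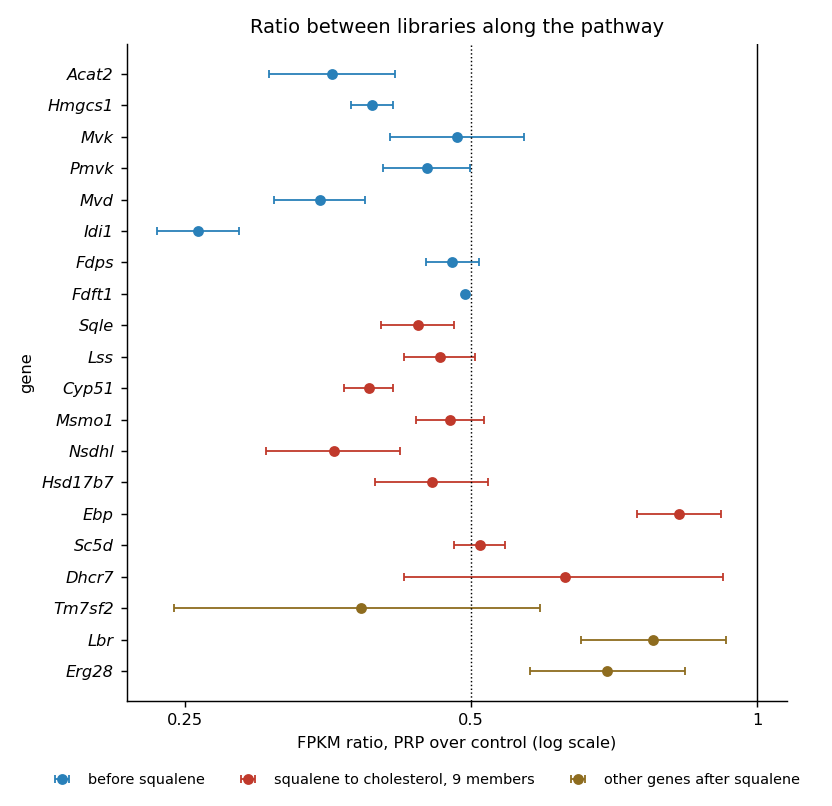
FPKM ratio of PRP over control on a log scale for the genes before squalene (blue), the 9 members (red) and the other genes after squalene (brown), with 95% intervals of counting error, and lines at 0.5 (dotted) and 1 (solid). All 20 points lie to the left of 1, and Ebp (0.828) is the one nearest to it.

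Genes that surround the pathway gave a mixed picture. Of 8 tested genes of sterol sensing and uptake, 7 were lower in the PRP library, 6 with an interval below 1, and the median log2 fold change was -0.52. Stard4, a cytosolic cholesterol carrier, was the lowest at 5.07 against 10.2 FPKM (0.496, 0.447 to 0.551), and Insig2, which holds the SREBP escort protein in the endoplasmic reticulum, was the highest at 6.52 against 6.26 FPKM, with an interval of 0.906 to 1.20 that includes no difference. The branches that use the same isoprenoids for other products had 2 lower and 5 higher of 7 tested genes and a median of 0.03, from Fnta, a farnesyltransferase subunit (0.722, 0.655 to 0.796), to Rabggtb, a subunit that prenylates Rab proteins (1.41, 1.30 to 1.53). The electron donors of the pathway's oxidation steps had 3 lower and 3 higher of 6, each with an interval apart from 1, and a median of 0.04. Among them cytochrome b5 type B, Cyb5b, had 38.8 against 49.8 FPKM (0.780, 0.745 to 0.818) and the microsomal form Cyb5a had 199.6 against 159.2 FPKM (1.25, 1.22 to 1.29). Over all tested genes with an interval, 26.1% had it below 1, and the share above 1 was not counted. Of 7 genes for the turnover of sterol enzymes, 5 were lower and 2 higher with a median of -0.08, from the ubiquitin ligase Rnf145 (0.692, 0.591 to 0.809) to Aup1 (1.31, 1.18 to 1.45). Of 6 related dehydrogenase genes, which share the family of Hsd17b7 or Nsdhl, 2 were lower and 4 higher with a median of 0.04, from Hsd17b11 (0.862, 0.752 to 0.987) to Hsd17b10 (1.12, 0.991 to 1.27). Each of these medians stands beside -0.96 for the members and 0.01 for all tested genes.

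Most proliferation markers were also lower with PRP. Of these 10 genes 9 were lower and 1, Ccna2, was higher with PRP. Their median log2 fold change was -0.47, their summed levels were 95.9 against 137.9 FPKM, and 7 of 9 intervals were below 1 and 1 above. Of all tested genes with an interval, 26.1% had it below 1, and the share above 1 was not counted. Their ratios ran from 0.577 for Mki67 to 1.11 for Ccna2. Of the members, Ebp (0.828) and Dhcr7 (0.627) lay within that range. The other members, from 0.358 for Nsdhl to 0.510 for Sc5d, lay below it. The part of these markers, of the FAP and other cell type markers and of the mitochondrial share in the members' difference was not tested.

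**Figure D5:**
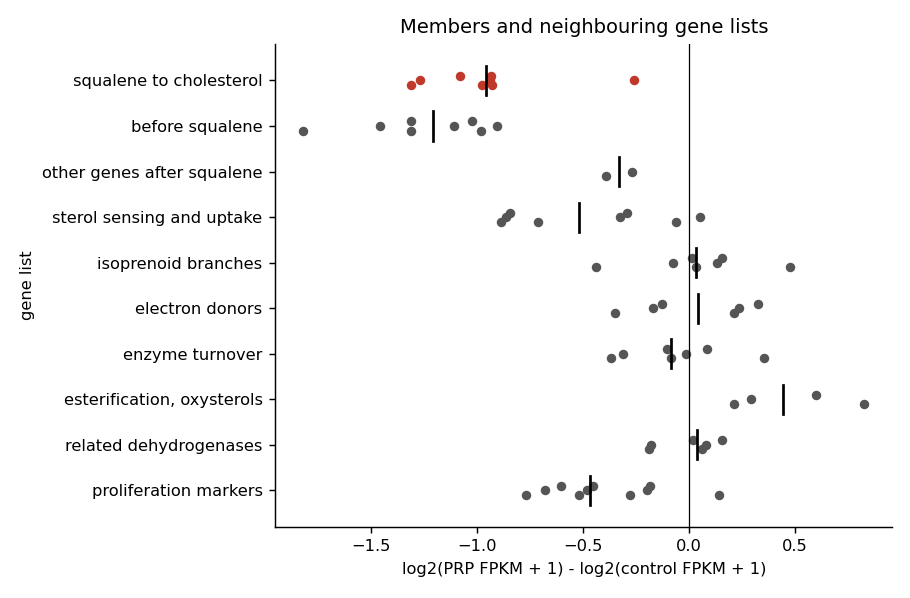
Log2 fold change on the log2(FPKM + 1) scale of each tested gene (dots) in the members' list (red) and in other gene lists (grey), with the median of each list as a vertical bar. The members' median of -0.96 and that of the genes before squalene (-1.21) lie left of all other lists shown, and the members' only dot near 0 is Ebp.

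The study names let-7f-5p and miR-16-5p as exosome cargo, so the longest 3′UTR of each member in GENCODE M21 was searched for the match to the seed of each (bases 2 to 8, in capitals in the RefSeq mouse sequences below).
mmu-let-7f-5p: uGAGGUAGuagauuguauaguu
mmu-miR-16-5p: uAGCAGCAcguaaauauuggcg

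The let-7f match CTACCTC was in none of the 9 members and in 9.86% of the 10292 tested genes with a 3′UTR. The miR-16 match TGCTGCT was in 2 of 9 members and in 24.6% of those genes. Both members with a match, Hsd17b7 and Sc5d, have the longest 3′UTRs of the 9, at 3498 and 3747 bases against a median of 1155 bases over the tested genes. Hsd17b7 held 4 matches, of which 3 lay close together in a repeated stretch, and Sc5d held 1, printed here with 8 bases on each side and the match in capitals.
Hsd17b7, 3′UTR bases 453 to 459: ccttcataTGCTGCTttggctaa
Hsd17b7, 3′UTR bases 2812 to 2818: ggctggaaTGCTGCTggaatgct
Hsd17b7, 3′UTR bases 2823 to 2829: tgctggaaTGCTGCTggaatgct
Hsd17b7, 3′UTR bases 2834 to 2840: tgctggaaTGCTGCTgtggtact
Sc5d, 3′UTR bases 3210 to 3216: ccttaacaTGCTGCTaaagaaac

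Their ratios of 0.454 and 0.510 lay within the range of the 7 members without a match, 0.358 to 0.828.

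The tested genes outside the lists whose log2 fold change was nearest to the members' median of -0.96, among 11977 candidates with both FPKM values in the members' range, were Mir8098, Mir5116, 9430069I07Rik, Pfkl and Gm13748. Likeness was measured on the single difference between 2 libraries, and 91 candidates lay within 0.1 of the median. Pfkl, the liver-type phosphofructokinase of glycolysis, had 8.13 against 16.7 FPKM (0.487, 0.452 to 0.525). 9430069I07Rik had 1.83 against 4.51 FPKM (0.406, 0.229 to 0.698) and Gm13748 had 1.78 against 4.42 FPKM (0.403, 0.194 to 0.796), and the intervals of both microRNA genes included 1. Of the members, Sc5d alone had a similar transcript elsewhere, Gm31520, at 88.9% identity over 1171 bases, which was listed at 0 FPKM in both libraries.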

How the data were processed

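RNA-seq of FAPs, 1 library treated with PRP and 1 with vehicle, was used. The deposited values are FPKM per gene as the authors computed them. Per the submitters' processing notes, fastp 0.23.4, STAR 2.5.3a, featureCounts and mm10 were used, and the annotation release and the FPKM step are not given in the sources used here. Exon lengths and coordinates came from GENCODE M21 (41492 of 44291 genes matched), and 26406 of 28160 genes above 0 with a length (93.8%) gave whole reads in both libraries within 0.001 reads. Reads served for depth and intervals only. Even counts were in excess (79.3% of genes of up to 8 reads for PRP, 80.3% for the control), so intervals used reads divided by 2. PCR duplicates were not accounted for. A pair of gene ratios was compared by a normal interval of the log ratio of ratios. Tested genes averaged 1 FPKM or more, and the log2 fold change used a pseudocount of 1. The members and gene lists were chosen with earlier results of these data known. A few genes of these lists are not reported here and were left out of the list counts. Named are all members and the other reported genes of cholesterol synthesis, the lowest and the highest tested gene of every other pathway list, and the 5 genes nearest to the members' median. Marker genes were named after their values were seen. Alternatives were other pseudocounts, filters, scalings, fold limits, single reads, motif lengths and, chosen after seeing the data, ratios without a pseudocount and levels per length of the longest coding transcript. Tools were Python 3.11.15 with SciPy 1.17.1, NumPy 2.4.6 and pandas 2.3.3, BLAST+ 2.17.0 (at least 85% identity over 300 bases) and, for plots, matplotlib 3.10.9. The recovery of totals and reads, the coverage of single-gene ratio intervals and the direction of folds were checked on simulated counts. Those counts were made with the same doubling of reads, and the other procedures were not checked in this way.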

Additional observations from a re-analysis of the deposited data

How the results depend on the processing

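The number of members with a log2 fold change of -1 or less was 3 when 1 was added to each FPKM. Adding 0.1 made it 6 (2.00% of all genes tested then passed) and adding 5 made it 1 (0.216%). It was 7 at a limit of 1.5-fold (4.57%), 0 at a limit of 4-fold (0.0224%), 4 when sums were made equal without mitochondrial and the 50 most abundant genes (0.962%), and 6 at an FPKM ratio of 0.5 or less without a pseudocount (2.16%), which was chosen after seeing the data. The members' median of -0.96 became -1.10 when 0.1 was added and -0.76 when 5 was added, and the median of -1.21 of the genes before squalene became -0.93 when 5 was added. These moves follow from the pseudocount, the scaling or the limit itself. Without the last base of the sterol regulatory element, 1 member in place of 0 held it. All 45 alternative fold changes of the 9 members were below 0, and 8 of them moved by more than counting error. Over 55 alternative medians of the other pathway lists, the sign changed only for enzyme turnover, from -0.08 to 0.08 where only genes averaging 5 FPKM or more were used, and the median of all tested genes stayed between -0.02 and 0.01. The medians of isoprenoid branches, electron donors, enzyme turnover and related dehydrogenases lay between -0.11 and 0.06 in all other alternatives. Larger medians moved by over 1.5 times in 6 cases. That of sterol sensing and uptake (-0.52) became -0.27 when 5 was added and -0.31 with no filter, that of the other genes after squalene (-0.33) became -0.16 when 5 was added, and that of esterification and oxysterols (0.44) became 0.24 when 5 was added, 0.25 with no filter and 0.29 where genes averaged 5 FPKM or more. With that filter no other gene after squalene was left. The interval was below 1 for 9 members also when single reads were counted. By longest coding transcript, an alternative chosen after seeing the data, the highest level was that of Cyp51 in the control library (50.6) and of Msmo1 in the PRP library (21.4). No paired analysis was possible because there is a single library in each group. The depth limits Dhcr7 most, with 98 and 133 reads.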

Other observations

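In a list of 8 genes for cholesterol esters and oxysterols, 5 were higher and 3 lower with PRP. The 4 genes of the list that were tested were all higher, as were 6815 of all 13401 tested genes. Soat2 reached the mean FPKM of 1 only through its level with PRP, as its control level was 0.503 FPKM. The 3 lower genes all fell under that filter. Each of the 4 had an interval above 1, and their median log2 fold change was 0.44. These intervals hold counting error alone, and the share of all tested genes with an interval above 1 was not counted. Soat1, the widely used enzyme that esterifies cholesterol, had a level of 9.26 FPKM with PRP and 7.39 FPKM in the control (ratio 1.25, 1.17 to 1.35). Soat2, its relative of liver and intestine, had 1.67 and 0.503 FPKM from 148 and 38 reads (3.31, 1.98 to 5.81). Ch25h, which makes an oxysterol, had 4.03 and 2.32 FPKM from 224 and 110 reads (1.73, 1.24 to 2.44). Nceh1, a hydrolase of cholesterol esters, had 4.12 and 3.42 FPKM (1.21, 1.04 to 1.40). The other 4 genes did not reach a mean FPKM of 1, and of these Cyp27a1, with 46 and 16 reads, had a ratio of 2.45 (1.06 to 6.33), whereas Cyp7b1 (0.413, 0.153 to 1.01), Lcat (0.605, 0.278 to 1.28) and Cyp46a1 (0.718, 0.321 to 1.58) had ratios below 1 with intervals that included it. Of these genes all but Soat2 and Nceh1 were named after their values were seen. Each value compares 1 library with 1 library.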
